A study of Mus musculus with 6 samples.

Results

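The genes described here are Dbp and 9 further genes of the circadian clock and its output, namely Tef, Hlf, Per1, Per2, Per3, Nr1d1, Nr1d2, Arntl and Ciart. They were taken by symbol from a table of 28162 genes, which held all 10, and all 10 passed the filter on low values. Dbp was chosen by its own measured rise after AAV-NDNF in these libraries, so its difference is given as a description with no test. The other 9 were chosen for their known place in the clock, with earlier results of these data already known.

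The tissue was ventral lumbar spinal cord of SOD1G93A mice, a model of amyotrophic lateral sclerosis in which a transgene expresses mutant superoxide dismutase 1. Adeno-associated virus (AAV) carrying either green fluorescent protein (AAV-GFP, the control) or neuron-derived neurotrophic factor (AAV-NDNF) was given intrathecally on postnatal day 74, and polyadenylated RNA was sequenced from tissue of day 104. Each group held 3 libraries, titled as biological replicates. The labels do not say that each library is 1 animal, so p-values measure the spread between these libraries. Animals of both groups carried the transgene and a virus, and no group without either was analysed here. The clock time at which tissue was taken, the light cycle, and the promoter and serotype of the virus are not stated in the labels.

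The clock is a transcriptional loop that runs in most cells. The proteins CLOCK (or NPAS2) and BMAL1, the product of Arntl, bind E-box elements and activate the Per and Cry genes, whose products then block that activation. The same E-box drive reaches Nr1d1 and Nr1d2, which encode the REV-ERB receptors that repress Arntl through ROR elements, and the output factors Dbp, Tef and Hlf, which bind D-box elements in their targets. In mouse tissues transcripts of Nr1d1, Nr1d2, Dbp, Tef, Hlf, Per1, Per2, Per3 and Ciart peak within some hours of each other, late in the light phase or early in the dark phase. Arntl, Npas2 and Clock peak at nearly the opposite time.

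All 10 are protein-coding genes in GENCODE M21 on mm10. Dbp is on chromosome 7 (45705088 to 45710203, plus strand), Tef on 15 (81802421 to 81826863, plus) and Hlf on 11 (90336536 to 90390895, minus). Per1 is on chromosome 11 (69095217 to 69109960, plus), Per2 on 1 (91415982 to 91459324, minus), Per3 on 4 (151003652 to 151044665, minus) and Ciart on 3 (95878503 to 95882251, minus). Nr1d1 is on chromosome 11 (98767932 to 98775333, minus), Nr1d2 on 14 (18204054 to 18239127, minus) and Arntl on 7 (113207465 to 113314126, plus). The members are thus spread over 7 chromosomes, with Hlf, Per1 and Nr1d1 apart from one another on chromosome 11.

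Reads assigned to genes came to between 15335789 and 20060987 per library. Ndnf stood at 128 to 171 normalized counts in the controls and at 5286, 7077 and 674 in AAV-NDNF replicates 1, 2 and 3, the direction the labels give. AAV-NDNF replicate 3 thus stood apart in Ndnf. Neuronal, motor neuron, astrocyte and oligodendrocyte markers were all detected. All 6 neuronal markers had log2 fold changes above 0 (median 0.15) and all 6 astrocyte markers below 0 (median −0.13). The summed levels of both sets overlapped between the groups, but narrowly. The neuronal sum was 56589 to 64129 in controls and 64059 to 73219 after AAV-NDNF. The astrocyte sum was 161840 to 204940 in controls and 138400 to 163540 after AAV-NDNF. Taken singly, 2 of the astrocyte markers were lower without overlap, as were 5.5% of all tested genes. The summed level of 6 motor neuron markers (Chat, Slc5a7, Slc18a3, Mnx1, Isl1 and Prph) was 6107.5 to 7419 in controls and 6347 to 7329 after AAV-NDNF, and the 3 Schwann cell and 4 skeletal muscle markers present in the table summed to at most 47.9 and 44.9 in any library. The summed level of 6 microglial markers was 17711 to 19062 in controls and 12697 to 15098 after AAV-NDNF, without overlap. Taken singly, 4 of these 6 were lower without overlap, beside 5.5% of all tested genes. In bulk tissue fewer cells of a type and less RNA per cell cannot be told apart. Across all 17480 genes tested, limma called 0 genes at a Benjamini-Hochberg adjusted p under 0.05 (0.0%), while an unadjusted p under 0.05 was reached by 818 (4.68%), 201 of them higher (1.15%) and 617 lower (3.53%). The edgeR and DESeq2 tests on recovered reads called 0 and 55 genes and had 804 and 774 at an unadjusted p under 0.05. With AAV-GFP replicate 2 left out limma called 43 genes, with AAV-NDNF replicate 3 left out 11 and with AAV-NDNF replicate 1 left out 1. The count at an unadjusted p under 0.05 was 544 once AAV-GFP replicate 1 was dropped, and 1535 once AAV-NDNF replicate 1 was. None of the 9 members other than Dbp was among the called genes in any of these fits.

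Dbp, the albumin D-box binding protein, is among the transcripts with the strongest daily swing in mouse tissues. Its normalized read counts were 1105, 1010.5 and 1070.3 in AAV-GFP libraries 1 to 3 and 1351, 1376 and 1542 in AAV-NDNF libraries 1 to 3. Every AAV-NDNF library lay above every control, the lowest being 1.22 times the highest control. The means were 1062 ± 47.9 (SD, n = 3) and 1423 ± 104 (SD, n = 3), a ratio of 1.34 and a log2 difference of 0.42, and 796 tested genes had a larger log2 fold change. The highest value was that of AAV-NDNF replicate 3, the library with the least Ndnf. With any 1 library left out the log2 difference lay between 0.36 (without that library) and 0.46. These values chose the gene and support nothing further.

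Of the exons of Dbp, 539 bases (18.01%) overlap exons of Sphk2, a sphingosine kinase gene on the opposite strand. Whether reads were counted by strand was not given in the sources used here, and without strand the reads of the shared stretch cannot be told apart. Sphk2 was 844, 828 and 774 under AAV-GFP and 919, 902 and 944 under AAV-NDNF, with no overlap between the groups and a log2 fold change of 0.18 (SE 0.11, limma adjusted p = 0.997). The within-library log2 ratio of Dbp to Sphk2 was 0.39, 0.29 and 0.47 under AAV-GFP and 0.55, 0.61 and 0.71 under AAV-NDNF. That ratio takes up the Dbp values that chose the gene and is given as a description. The part of that overlap in the Dbp value was not tested.

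**Figure D1:**
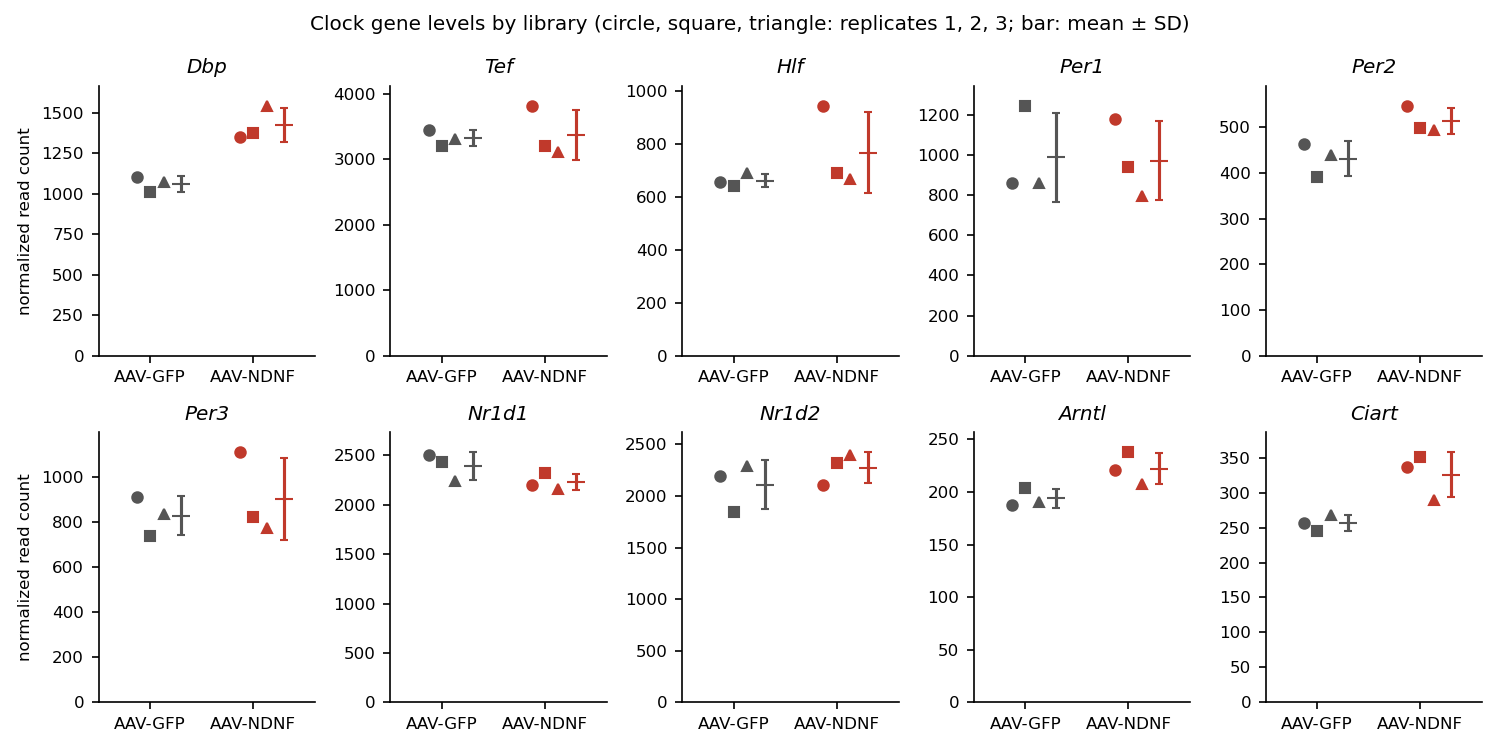
Normalized read counts of the 10 members in each library (circle, square and triangle for replicates 1, 2 and 3), with the mean and SD of the 3 libraries of a group as bars; each vertical axis starts at 0. The groups separate for Dbp, Per2, Arntl and Ciart and overlap for the other 6.

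The other D-box binding factors were examined next, since Tef and Hlf share their DNA element with Dbp. Tef, the thyrotroph embryonic factor, was 3442, 3205 and 3311 under AAV-GFP and 3812, 3198 and 3109.8 under AAV-NDNF. Its AAV-NDNF libraries held both the highest and the lowest values of the 6. The log2 fold change was 0.018 (95% interval −0.23 to 0.27, limma adjusted p = 0.997), and its sign turned when AAV-NDNF replicate 1 (−0.073) or AAV-GFP replicate 2 was left out. Hlf, the hepatic leukemia factor, was 658, 640.1 and 689 under AAV-GFP and 944, 690.4 and 667 under AAV-NDNF. AAV-NDNF replicate 1 stood well above the controls and the other two AAV-NDNF libraries lay near them, and the log2 fold change of 0.19 (95% interval −0.12 to 0.51, limma adjusted p = 0.997) was 0.04 without that library. Tef and Hlf thus shared their highest library, AAV-NDNF replicate 1, which was the lowest AAV-NDNF library for Dbp. AAV-NDNF replicate 3 was the lowest of its group for Tef and Hlf and the highest for Dbp. AAV-GFP replicate 2 was the lowest control for all 3 factors.

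The Period genes encode the negative arm of the loop. Per1, which also answers acutely to cAMP signalling and glucocorticoids, was 862, 1243 and 858 under AAV-GFP and 1181, 938 and 793 under AAV-NDNF. The groups overlapped throughout, with AAV-GFP replicate 2 the highest of the 6 libraries. The log2 fold change was −0.022 (95% interval −0.41 to 0.37, limma adjusted p = 0.997), and its sign turned without AAV-GFP replicate 2 (0.16) or AAV-NDNF replicate 3 (0.11). Per2 was 464, 391 and 440.1 under AAV-GFP and 547, 499 and 495 under AAV-NDNF, so each AAV-NDNF library lay above each control. Its log2 fold change of 0.25 (95% interval −0.03 to 0.54) had an unadjusted p of 0.0762 and a limma adjusted p of 0.997. Per3 was 912, 737 and 835 under AAV-GFP and 1108, 823 and 771 under AAV-NDNF, with overlapping groups. Its log2 fold change was 0.11 (95% interval −0.23 to 0.44, limma adjusted p = 0.997), and −0.050 without AAV-NDNF replicate 1. Only Per2 of the Period genes separated the groups.

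Ciart (CHRONO) encodes a repressor of CLOCK and BMAL1 that adds to the negative arm. It was 257, 245 and 268 under AAV-GFP and 336, 350.3 and 289 under AAV-NDNF, again without overlap. The means were 257 ± 11.4 and 325 ± 32.0 (SD, n = 3 each), and the log2 fold change was 0.34 (95% interval 0.01 to 0.66). Ciart was the only one of the 9 members other than Dbp with an unadjusted p under 0.05 (limma unadjusted p = 0.0427, adjusted p = 0.997), where 4.68% of all tested genes had one. That count of 1 became 0 without any 1 of AAV-GFP replicates 1, 2 and 3 and AAV-NDNF replicates 1 and 2, and stayed 1 without AAV-NDNF replicate 3. The difference itself lay between 0.28 and 0.42 over those fits.

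Promoter windows of 300 bases (250 before and 50 from the transcription start) were taken from RefSeq on GRCm38.p6, the assembly of mm10. There were 12 windows for 9 members, with none for Per2. They were searched on both strands for the E-box CACGTG, the D-box as TTATGTAA, its reverse complement TTACATAA or TTACGTAA, the core TAGGTCA of the ROR element, and the cAMP response element (CRE) TGACGTCA. No matches to different motifs overlapped. Over all 32851 RefSeq promoter windows, an E-box was in 7.15%, a D-box in 1.06%, the ROR core in 2.61% and the CRE in 1.79%. The windows below are shown with matches in capitals, because they belong to Dbp itself, to the member with the most E-boxes, to the one with D-boxes, and to the gene of opposite phase:
Dbp, chr7:45704997-45705296, plus strand: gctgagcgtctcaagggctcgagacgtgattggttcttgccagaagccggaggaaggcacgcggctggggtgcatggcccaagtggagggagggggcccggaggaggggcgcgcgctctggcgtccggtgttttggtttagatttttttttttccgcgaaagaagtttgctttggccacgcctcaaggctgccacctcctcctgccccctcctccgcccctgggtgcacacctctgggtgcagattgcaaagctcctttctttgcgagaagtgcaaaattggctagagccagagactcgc
Ciart, chr3:95882179-95882478, minus strand: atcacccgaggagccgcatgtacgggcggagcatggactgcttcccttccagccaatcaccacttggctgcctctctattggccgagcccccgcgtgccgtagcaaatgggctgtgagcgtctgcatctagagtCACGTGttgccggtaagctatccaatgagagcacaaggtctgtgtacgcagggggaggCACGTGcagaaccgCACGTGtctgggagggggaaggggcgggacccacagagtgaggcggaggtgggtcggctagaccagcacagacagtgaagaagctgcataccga
Per3, chr4:151044616-151044915, minus strand: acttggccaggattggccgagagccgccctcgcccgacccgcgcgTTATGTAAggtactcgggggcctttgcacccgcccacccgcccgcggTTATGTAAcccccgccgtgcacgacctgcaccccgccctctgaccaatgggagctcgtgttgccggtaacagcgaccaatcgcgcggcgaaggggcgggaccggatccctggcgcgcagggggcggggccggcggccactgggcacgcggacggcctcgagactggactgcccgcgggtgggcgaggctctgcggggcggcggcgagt
Arntl, chr7:113207261-113207560, plus strand: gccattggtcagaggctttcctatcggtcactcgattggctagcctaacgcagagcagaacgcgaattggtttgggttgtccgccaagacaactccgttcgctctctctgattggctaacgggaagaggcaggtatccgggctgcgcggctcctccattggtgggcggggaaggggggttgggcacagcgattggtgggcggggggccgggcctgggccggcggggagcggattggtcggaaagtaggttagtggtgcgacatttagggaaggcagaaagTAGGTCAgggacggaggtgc

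The Ciart window held 3 E-boxes, at positions −116, −58 and −44 from the start, and 0.0883% of all windows held 3 or more. The Per3 window held 2 D-boxes, at positions −205 and −158, as 0.0244% of all windows did in that number or more. The shown Arntl window, from the second of its 2 annotated starts, held 1 ROR core 31 bases into the transcript. The Dbp window held no match to the 4 motifs. Both Tef windows and 1 of 2 Per1 windows held 1 E-box each, the Hlf window held 1 CRE, and those of Nr1d1 and Nr1d2 held none. Members with an E-box in the window thus included Ciart, whose groups separated, and Tef and Per1, whose groups overlapped. A match describes letters in this window and not binding.

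**Figure D2:**
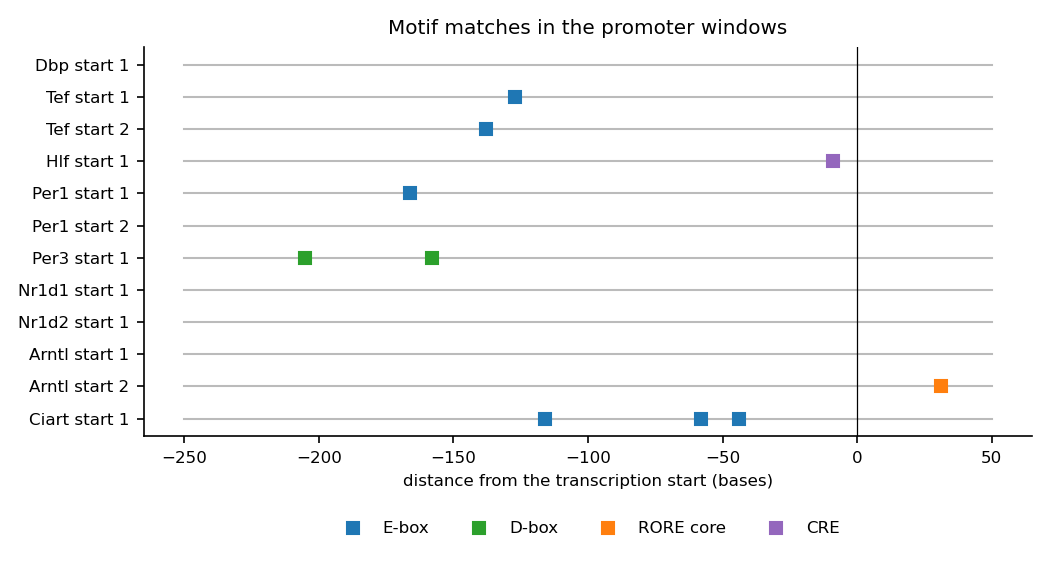
Positions of motif matches (colored squares, at the leftmost base) in the 12 promoter windows, with distance in bases from the transcription start on the horizontal axis and 1 line per annotated start. Ciart has 3 E-boxes, at −116, −58 and −44, and Per3 has 2 D-boxes, while Dbp has no match.

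Nr1d1 and Nr1d2 were measured as the arm that represses Arntl. Nr1d1 was 2503, 2429 and 2236 under AAV-GFP and 2202, 2317 and 2160.1 under AAV-NDNF. It was the member whose values leaned furthest the other way, with overlapping groups and a log2 fold change of −0.10 (95% interval −0.33 to 0.13, limma adjusted p = 0.997). The exons of Nr1d1 share 263 bases (8.55%) with those of Thra, the thyroid hormone receptor alpha gene on the opposite strand, whose mean was 4468 ± 152 in controls and 4462 ± 291 after AAV-NDNF (SD, n = 3 each). Nr1d2 was 2199, 1847 and 2290.1 under AAV-GFP and 2107, 2317 and 2396 under AAV-NDNF, which also overlapped. Its log2 fold change of 0.11 (95% interval −0.15 to 0.37, limma adjusted p = 0.997) was 0.02 without AAV-GFP replicate 2, the lowest library. Neither REV-ERB gene separated the groups.

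Arntl was the 1 member that peaks opposite to Dbp. It was 187, 204 and 190.1 under AAV-GFP and 221, 238 and 208 under AAV-NDNF. The lowest AAV-NDNF library was 1.02 times the highest control, so the groups did not overlap but nearly touched. The log2 fold change was 0.19 (95% interval −0.15 to 0.54, limma adjusted p = 0.997) and lay on the same side as that of Dbp. Arntl was covered by 178 to 263 reads per library, the fewest of the members, where Tef had 2839 to 4532.

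Counted together, 4 of the 10 members (Dbp, Per2, Ciart and Arntl) had groups that did not overlap, all 4 higher after AAV-NDNF. Over all tested genes 9.75% did not overlap, 4.26% with higher and 5.5% with lower AAV-NDNF values. Without Dbp, which was picked for this, the count was 3 of 9. Among those 9 the log2 fold change was above 0 for 7 and below 0 for 2, with a median of 0.11, beside 0.00 over all genes tested. Since limma called 0 of the 9 members, these counts are a description of 6 libraries.

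**Figure D3:**
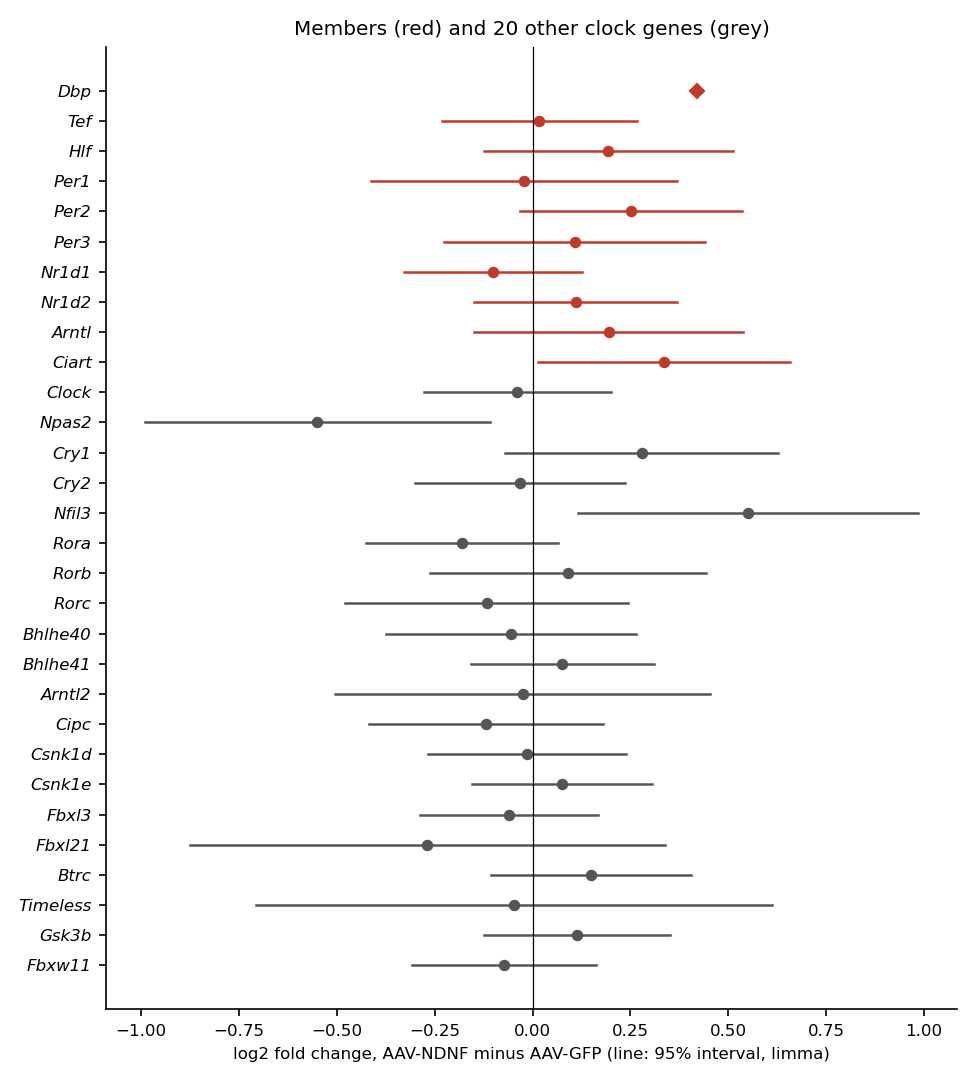
Log2 fold change (AAV-NDNF over AAV-GFP, from log2(normalized count + 1)) of the 10 members (red) and 20 other clock genes (grey), with 95% intervals from limma over 3 against 3 libraries; Dbp has no interval because it was picked for this value. The intervals leave 0 only for Ciart, Npas2 and Nfil3, before adjustment over all genes.

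The members near the phase of Dbp were next compared with Arntl. This measure does not depend on library scaling, since it is a difference of log2 levels within a library. The mean log2 level of the 8 members near Dbp in phase (Dbp itself left out) minus that of Arntl was 2.44, 2.25 and 2.39 under AAV-GFP and 2.42, 2.15 and 2.25 under AAV-NDNF. The groups overlapped, and the difference between their means was −0.08, smaller than the SD of either group (0.10 and 0.14). With Dbp added the difference was −0.05, and with Npas2, Clock, Cry1 and Nfil3 added to Arntl it was 0.02. By this measure no movement of the 8 genes against Arntl was detectable at this spread and number of libraries.

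The ratios of single members to Arntl were then taken in the same way. The log2 ratio of Dbp to Arntl was 2.55, 2.30 and 2.49 under AAV-GFP and 2.60, 2.53 and 2.88 under AAV-NDNF, so AAV-NDNF replicate 2 lay below AAV-GFP replicate 1 and the groups overlapped. That ratio takes up the Dbp values that chose the gene, so this overlap is given as a description. Arntl was itself higher in every AAV-NDNF library, which lowers any ratio to it. Few tested genes separated upward by it, as the shares given below for all other tested genes show. The log2 ratio of Per2 to Arntl was 1.30, 0.93 and 1.21 against 1.30, 1.07 and 1.25. The log2 ratio of Ciart to Arntl was 0.45, 0.26 and 0.49 against 0.60, 0.56 and 0.47, and both overlapped. Of the 9 log2 ratios to Arntl only that of Nr1d1 separated the groups. It was 3.73, 3.57 and 3.55 under AAV-GFP and 3.31, 3.28 and 3.37 under AAV-NDNF. Over all other tested genes the ratio to Arntl separated the groups for 20.6%, and for 20.1% with the lower values after AAV-NDNF, so 1 of 9 is no result about the members. The mean log2 ratio of Dbp to Arntl was 2.45 under AAV-GFP and 2.67 under AAV-NDNF.

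**Figure D4:**
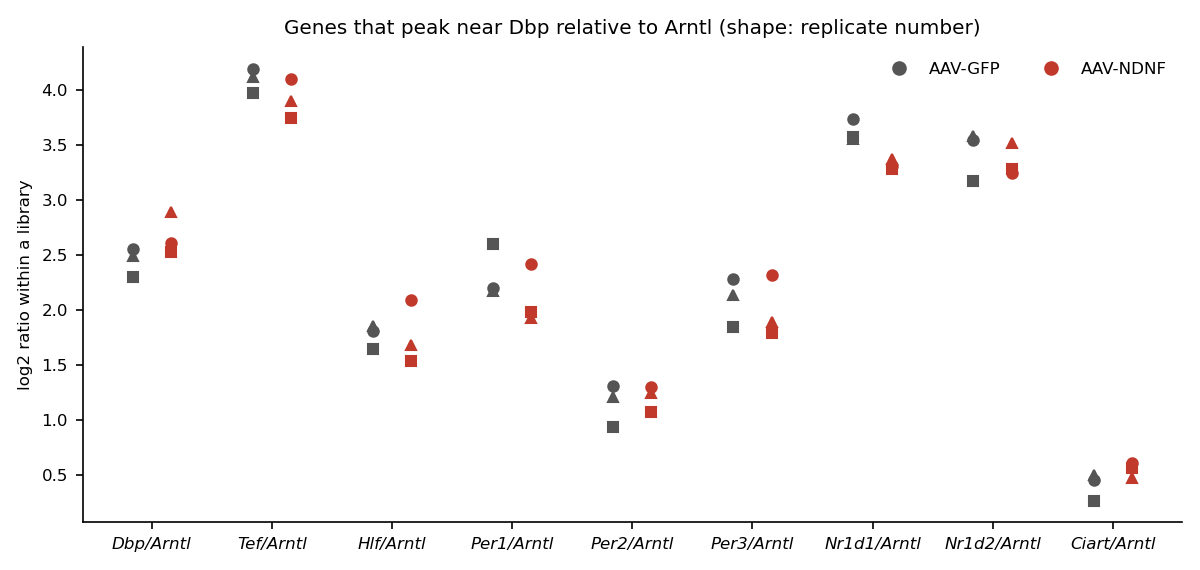
Log2 ratio of each of 9 members to Arntl within a library (vertical axis), for AAV-GFP (grey) and AAV-NDNF (red), with shapes for replicates 1, 2 and 3. Nr1d1 to Arntl is the 1 ratio whose groups separate, and Dbp to Arntl overlaps.

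The remaining genes of opposite or late phase did not share a direction. Npas2, a partner of BMAL1 that can replace CLOCK, was 119, 149.5 and 145 under AAV-GFP and 92.5, 98.0 and 89.8 under AAV-NDNF. It was lower in every AAV-NDNF library, while Arntl was higher in every one. Its log2 fold change was −0.55 (SE 0.20, limma unadjusted p = 0.0191, adjusted p = 0.942). Nfil3 (E4BP4), a repressor that competes for D-boxes, was 109.8, 103.6 and 128 under AAV-GFP and 141, 186 and 176 under AAV-NDNF. Each AAV-NDNF library was above each control, on the side opposite to Npas2, with a log2 fold change of 0.55 (SE 0.20, limma unadjusted p = 0.0174, adjusted p = 0.915). Cry1, which encodes a partner of the Period proteins, was 226, 246 and 266 against 269, 285 and 345, and its groups nearly touched (log2 fold change 0.28, limma unadjusted p = 0.106). Clock was 1369 ± 60.9 and 1334 ± 97.0 (SD, n = 3 each), with a log2 fold change of −0.04 that was 0.00 without AAV-NDNF replicate 3. Of the 5 genes of opposite or late phase, including Arntl, 3 separated upward and 1 downward, where 4.26% and 5.5% of all tested genes did. Arntl, Cry1, Nfil3 and Npas2 are those 4, and none passed the test.

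A list of 20 further clock genes held Npas2, Clock, Cry1 and Nfil3 but not Arntl, which is a member. It also covered the remaining CRY, ROR and DEC factors and the kinases and ubiquitin ligases that time PER and CRY decay. All 20 were tested and limma called 0. Nfil3 alone was higher and Npas2 alone lower at an unadjusted p under 0.05, where 1.15% of all tested genes were higher and 3.53% lower. Of the 20 log2 fold changes 7 were above 0 and 13 below, with a median of −0.04, beside 0.00 over all genes. One of those 2 genes no longer had an unadjusted p under 0.05 when AAV-GFP replicate 1, 2 or 3 or AAV-NDNF replicate 2 was left out. Rora, an activator of Arntl, was 926 ± 74.3 in controls and 816 ± 20.9 after AAV-NDNF (SD, n = 3 each), with no overlap (log2 fold change −0.18, limma adjusted p = 0.997). Btrc, a ubiquitin ligase subunit acting on PER, was 1201 ± 104 and 1332 ± 107, and Gsk3b, a clock kinase, was 3036 ± 164 and 3287 ± 241 (SD, n = 3 each), both with overlap.

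Genes driven by clock factors were next. Of 10 such outputs limma called 0, with 0 higher and 1 lower at an unadjusted p under 0.05, beside 1.15% and 3.53% of all tested genes. Of their log2 fold changes 3 were above 0 and 7 below, with a median of −0.07. Lonrf3, a ring finger gene, was the lower one (148 ± 7.27 against 97.7 ± 41.1, SD, n = 3 each, log2 fold change −0.69, limma unadjusted p = 0.0451, adjusted p = 0.997). Its log2 fold change was −0.30 without AAV-NDNF replicate 3, the lowest library. Wee1, an E-box driven kinase that holds back mitosis, was 493, 350 and 506 under AAV-GFP and 522, 550 and 613 under AAV-NDNF, each of the latter above each control (log2 fold change 0.34, limma adjusted p = 0.997). Usp2, a ubiquitin protease, was 506 ± 40.0 and 427 ± 59.3 (SD, n = 3 each). These outputs therefore lay on both sides of 0.

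**Figure D5:**
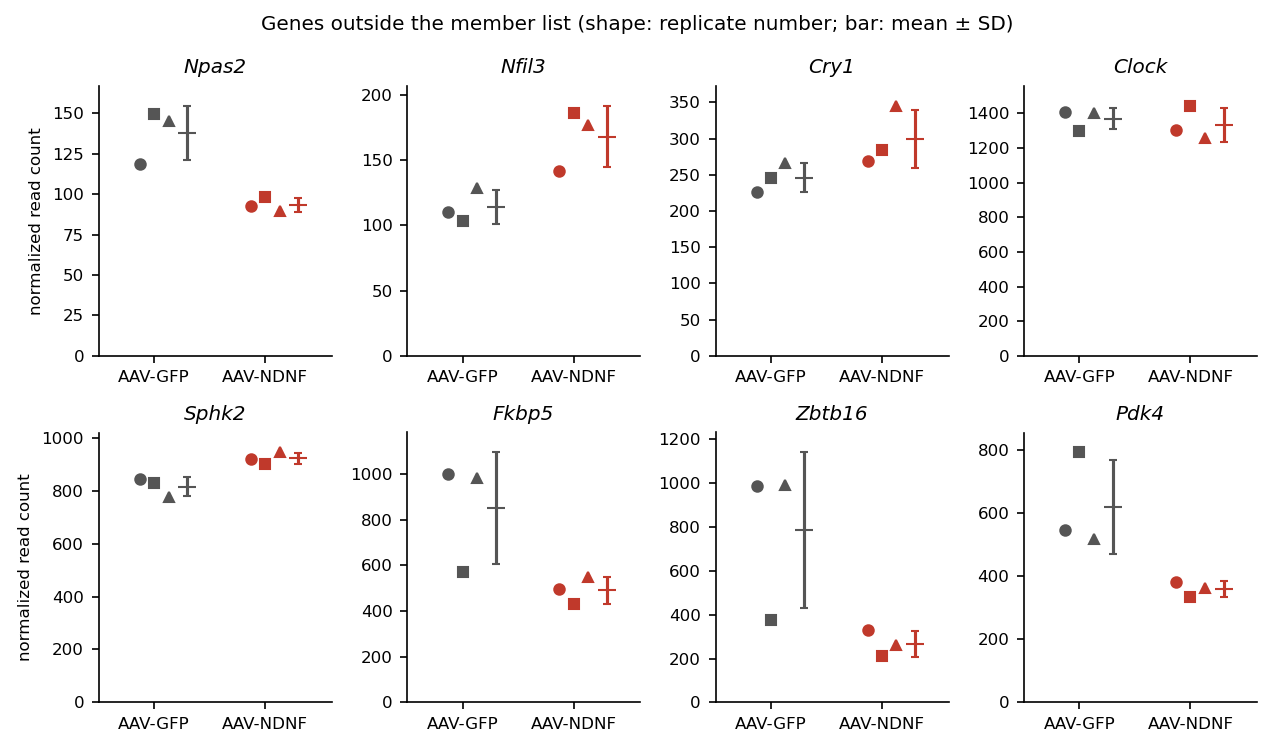
Normalized read counts per library (shapes for replicates 1, 2 and 3) with the group mean and SD, for genes beside the members that the text names; each vertical axis starts at 0. Npas2 is lower and Nfil3 higher in every AAV-NDNF library, and AAV-GFP replicate 2 stands below the other controls for Zbtb16 and Fkbp5.

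Glucocorticoids reset peripheral clocks and drive Per1, so a list of 12 glucocorticoid response genes was set beside the members. limma called 0 of them. Of the 12 log2 fold changes 5 were above 0 and 7 below, with a median of −0.07. Those above 0 were Sgk1 (0.51), Nfkbia (0.40), Ddit4 (0.33), Tsc22d3 (0.09) and Errfi1 (0.06), each with overlapping groups. At an unadjusted p under 0.05, 0 were higher and 5 lower (Fkbp5, Zbtb16, Pdk4, Map3k6 and Sult1a1), while 3.53% of all genes were lower by that measure. Zbtb16, a zinc finger factor, was 986, 374 and 993 under AAV-GFP and 331, 213 and 261 under AAV-NDNF. AAV-GFP replicate 2 was nearer to the AAV-NDNF libraries than to the other controls, and the log2 fold change was −1.44 (limma adjusted p = 0.53) or, without that library, −1.90 (limma adjusted p = 0.00646). Fkbp5, a cochaperone of the glucocorticoid receptor, was 999, 569 and 982 under AAV-GFP and 495, 430.2 and 548 under AAV-NDNF. Again AAV-GFP replicate 2 was the lowest control, with a log2 fold change of −0.75 (limma adjusted p = 0.549), or −1.02 without it (limma adjusted p = 0.0323). Pdk4, a kinase that limits pyruvate oxidation, was 547, 793 and 519 under AAV-GFP and 383, 334 and 363 under AAV-NDNF (log2 fold change −0.76, limma adjusted p = 0.442). On the recovered reads Pdk4 passed with DESeq2 (adjusted p = 0.0194) and limma-voom with quality weights (adjusted p = 0.0264) and not with edgeR (adjusted p = 0.37). With limma-voom Zbtb16 (adjusted p = 0.00378) and Fkbp5 (adjusted p = 0.0052) passed too. Neither Zbtb16 nor Fkbp5 passed with DESeq2 (adjusted p = 0.151 and 0.058) or edgeR (adjusted p = 0.423 and 0.461). Neither passed with limma when AAV-GFP replicate 1 or 3 was left out (adjusted p = 0.999 for each). Per1 is also on this list, and AAV-GFP replicate 2 was its highest control. The part of these genes, and of the microglial markers, in the Dbp value was not tested.

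Levels were then compared between members per kilobase of exon, which spanned 2.261 to 9.608 kb. In controls Nr1d1 was the highest, at 777 ± 44.9 normalized counts per kb, followed by Tef at 422 ± 15.1, Nr1d2 at 390.4 ± 43.2 and Dbp at 355 ± 16.004 (SD, n = 3 each). Tef and Nr1d2, and Nr1d2 and Dbp, differed by less than the larger of their SDs. Below them came Per1 at 175 ± 39.3, Ciart at 114 ± 5.04, Hlf at 99.1 ± 3.70, Per3 at 86.2 ± 9.16, Per2 at 73.7 ± 6.38 and Arntl at 25.8 ± 1.1985 (SD, n = 3 each). After AAV-NDNF the mean level per kb was 475 for Dbp, 429 for Tef and 420.2 for Nr1d2. SDs per kb were not computed for this group, where Tef had 3373 ± 382 normalized counts (SD, n = 3). The Dbp values chose the gene, so this order is only a description.

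Spread within groups was small for most members. The within-group SD on the log2 scale had a median of 0.12 over the 10 members and 0.22 over all genes tested. Measured against the 500 genes nearest in level, Arntl stood at percentile 1.2 and Nr1d1 at 9.6, whereas Per1 (SD 0.30) stood at 90.2, Per3 at 79.8 and Hlf at 69.8. Those 3 were the members above the median of their neighbours. Many members had the same lowest library within a group, and how often those libraries were lowest over all tested genes was not counted. The highest library was less shared. Among controls it was replicate 1, 2 or 3 for 5, 2 and 3 members. Among AAV-NDNF libraries these counts were 5, 3 and 2. AAV-GFP replicate 2 was the lowest control for 7 members and the highest for Per1 and Arntl, and AAV-NDNF replicate 3 was the lowest of its group for 8 and the highest for Dbp and Nr1d2. AAV-NDNF replicate 3 is also the library with the least Ndnf of its group, and the part of that in these values was not tested.

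The profile of Dbp over the 6 libraries was compared with every tested gene by Pearson's r on the log2 scale, given as a description since Dbp was picked for its difference. Among members r was 0.81 for Per2, 0.74 for Ciart, 0.63 for Nr1d2, 0.63 for Arntl, 0.35 for Hlf, 0.18 for Per3, −0.04 for Tef, −0.32 for Per1 and −0.68 for Nr1d1. Of all tested genes 2.88% had a higher r than Per2 and 5.54% a higher r than Ciart. Closest to Dbp by this measure were Sclt1, Stard4, Slc39a6 and Plpp7 (r = 0.99 each) and Ift88os (0.98), and farthest were Scgb1a1 (−0.997), Spon1 (−0.99) and Inpp5d (−0.99). Libraries share depth and group, which enter every such r.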

How the data were processed

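Polyadenylated RNA of 6 libraries was sequenced, and cutadapt, HISAT2, HTSeq and DESeq2 and the build mm10 are named in the submitters' processing notes, with no versions. The values used are the normalized counts the authors deposited for 28162 genes (a signal: gene counts divided by 1 size factor per library). Whole reads were recovered from them for all values within 0.001. The deposited log2 fold changes and standard errors, the Wald score and the p-values of the authors were read but not used as results. Whether counting used strand was not given in the sources used here.

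The 17480 genes that reached 10 normalized counts in 3 or more libraries were tested on log2(normalized count + 1) with limma 3.58.1 (R 4.3.3, trend and robust options) and Benjamini-Hochberg adjustment over all of them. Fold changes are on that scale and understate those of low genes. Intervals are 95% limma intervals, unadjusted. An exact permutation test of 3 against 3 cannot go below p = 0.10. Alternatives were TMM and upper quartile scaling, other filters and pseudocounts, edgeR 4.0.16 and DESeq2 1.42.0 on the recovered reads, limma-voom with quality weights, a replicate block and leaving out each library. On simulated data of 17264 genes for this comparison the limma step found 18% of 50 genes given a log2 change of 0.5. It found 89.8% of 49 given 1, 100% of 49 given 2 and 100% of 47 given 4, with 10 false calls. Every simulated gene had the same dispersion, so these shares do not carry over to genes that vary more. Ndnf, with a within-group log2 SD of 1.32, was not called at a log2 fold change of 4.27 (limma adjusted p = 0.53).

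Members and lists were chosen with earlier results of these data known. Named were all members, Ndnf, Npas2, Clock, Cry1 and Nfil3, exon-sharing neighbours, up to 6 other clock genes and up to 3 genes of each further list with the smallest unadjusted p, and the 5 genes most and 3 least like Dbp. Map3k6, Sult1a1, Sgk1, Nfkbia, Ddit4, Tsc22d3 and Errfi1 fall outside that rule and were named after their values were seen. Gene positions and exon lengths came from GENCODE M21 (97.99% of symbols matched 1 gene), and promoter sequences from RefSeq.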

Additional observations from a re-analysis of the deposited data

How the results depend on the processing

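Dbp, Hlf, Per2, Nr1d1, Nr1d2, Arntl and Ciart kept their direction in 16 of 16 alternatives. Per3 kept it in 14 and Tef and Per1 in 13, and no scaling, filter or pseudocount turned a member. All alternatives reuse the same 6 libraries, and Dbp was picked for its rise in them. The groups of Dbp, Per2, Arntl and Ciart did not overlap, so leaving out 1 library could not turn their sign. The log2 fold change turned to −0.042 for Tef, 0.10 for Per1 and −0.011 for Per3 with limma-voom quality weights. With 1 library left out it ranged from −0.073 to 0.073 for Tef, −0.17 to 0.16 for Per1, −0.050 to 0.21 for Per3, −0.10 to 0.0030 for Clock and −0.042 to 0.050 for Thra. The count of called genes (0) was 3 with no filter, 55 with DESeq2, 165 with limma-voom and 0 to 43 with 1 library left out. The count at an unadjusted p under 0.05 (818) was 1242 with no filter, 2433 with limma-voom and 544 to 1535 with 1 library left out. Members other than Dbp at an unadjusted p under 0.05 (1) were 0 with no filter and 0 to 1 with 1 library left out, and other clock genes (2) were 1 to 2. The alternatives for these 2 counts were chosen after seeing the data. The cause of these changes was not tested.

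With the replicate block 6 genes were called and 0 members other than Dbp had an unadjusted p under 0.05. Zbtb16 passed under the block (limma adjusted p = 0.00698). Libraries with the same number did not deviate together (r over genes −0.09, 0.05 and 0.08), so the numbers were not taken as pairs. Arntl, with 178 to 263 reads per library, had the least depth of the members.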

Other observations

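Immediate early genes, which neuronal activity induces within minutes and which share promoter elements with Per1, were measured beside the clock. Of 11 such genes limma called 0, with 0 at an unadjusted p under 0.05 in either direction, 5 log2 fold changes above 0 and 6 below, and a median of −0.02. The 3 with the smallest unadjusted p were Btg2, an antiproliferative gene (176 ± 2.22 in controls and 149.9 ± 22.6 after AAV-NDNF), the transcription factor gene Egr2 (50.6 ± 6.31 and 39.1 ± 7.79), and Fos (384 ± 49.1 and 334 ± 94.4; SD, n = 3 each). Their log2 fold changes were −0.24, −0.37 and −0.23 (limma adjusted p = 0.997 for each).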
